A study of Arabidopsis thaliana with 4 samples.

Results

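Enzymes that modify, conjugate and release small molecules were followed in inflorescences of the Arabidopsis thaliana mutant agamous against inflorescences of the wild type. The set comprised every gene with a probe assigned to that gene alone whose symbol starts with UGT, GST, CYP or BGLU. It held 36 genes, of which 35 had a value on all 4 arrays and were counted, among 5342 such loci in the series. They were 18 UGT genes, 6 GST genes, 4 CYP genes and 7 BGLU genes. The reference table lists 386 symbols with these letters (58 UGT, 47 GST, 241 CYP and 40 BGLU), so that 9.33% of them were measured singly, from 31.0% of UGT symbols to 2.07% of CYP symbols. On probes that the annotation assigns to several genes, 67 symbols with these letters appear, and those probes were not used. Each of the 5 CYP genes is named a cytochrome P450 in the reference table, and none a cyclophilin. All 6 GST genes belong to the plant-specific tau class. The labels give no allele, ecotype, age or number of plants for either inflorescence.

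Cytochromes P450 oxidise hormones, defence compounds and foreign molecules, and the products are often made soluble by conjugation. UDP-glycosyltransferases (UGT) transfer a sugar from a UDP-sugar to hormones, flavonoids, phenolics and glucosinolate precursors, whereas glutathione transferases (GST) attach or carry glutathione. Beta-glucosidases (BGLU) of glycoside hydrolase family 1 remove the sugar and release the active compound. Flowers use these enzymes for pigments, the pollen coat, scent and stored defence compounds. AGAMOUS specifies stamens and carpels, and its loss replaces them with petals and sepals, so that fewer cells of a type and less RNA per cell cannot be told apart in whole inflorescences.

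Each of the 4 two-colour arrays carried both RNAs and gave 1 log2 ratio per probe. The labels assign agamous RNA to channel 1 for arrays 1 and 3, and to channel 2 for the other pair, arrays 2 and 4. The deposited ratios did not follow that order. Over the 35 genes Spearman's rho was 0.54 between arrays 1 and 4 and 0.52 between arrays 2 and 3, but -0.83 between arrays 1 and 2, -0.40 between arrays 1 and 3, -0.48 between arrays 2 and 4 and -0.40 between arrays 3 and 4. Over all probes the same pairs, in that order, had 0.56, 0.62, -0.60, -0.38, -0.51 and -0.37. The points share the 4 hybridisations, and neither dye order nor sign is settled by the sources used here. Values are therefore given as deposited, and with the signs of arrays 2 and 3 turned, which is called the turned ratio below. In the turned ratio a negative value is likely lower in agamous, because anther genes ran that way, and with the opposite overall sign every direction below is exchanged. The signs were chosen from these arrays, a choice for which the adjusted p-values make no allowance, and the spread is that between arrays, which may be technical.

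Of the 9 measured marker genes of stamens, pollen, carpels and nectaries, 7 passed the test with a negative turned ratio. Since the overall sign was read from anther genes, the negative direction of the anther markers is no separate result. The 4 anther markers had means from -2.90 (ATA27) to -0.22 (SPL), the pollen genes SWEET8 and TUA1 had -4.68 and -0.44, the carpel and ovule genes CES and INO -4.99 and -1.52, and the nectary gene SWEET9 -4.55. The green-tissue enzymes PRK and SBPASE had 0.33 and 0.04 and did not pass, and no floral identity gene was measured singly. Among the 7 calls, those of INO and ATA27 ended without array 2, 3 or 4, with adjusted p of 0.0752, 0.0639 and 0.0615 for INO. All 9 of the stamen, pollen, carpel and nectary markers had negative turned means. Of the 35 enzyme genes 25 had means above 0, where 68.6% of all 5342 loci with 4 values did so. The part of the markers in the enzyme results below was not tested. Of 415 empty features tested with the probes, 4.34% also passed, against 16.2% of 26100 probes and loci.

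In the turned ratio, 9 of the 35 enzyme genes had an adjusted p under 0.05 in limma's test, 2 of them lower and 7 higher. Among all 5342 loci with 4 values 7.96% were called lower and 9.55% higher, and among all 26100 features 9.16% and 8.23%. Per family, 1 of 18 UGT genes was lower and 4 were higher, 2 of 6 GST genes and 1 of 4 P450 genes were higher, and 1 of 7 BGLU genes was lower. The share of lower calls over the 35 genes, 5.71%, was near the background, and that of higher calls was 20.0%. This higher share rested on small ratios. At least 2-fold means were counted for 2 genes in each direction, 5.71%, against a background of 7.49% lower and 5.19% higher. Centring each array on the median of its probes lowered the median of all loci to 0.04, against 0.18 before. It left 2 lower calls (5.71%) and 3 higher calls (8.57%, UGT73C1, UGT73C7 and GSTU27), against backgrounds of 8.69% and 3.86%.

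As deposited, no member passed (0 of 35 by limma, 1 at an unadjusted p under 0.05), where 0.226% of all features passed, all higher. Turned by the labels, with arrays 2 and 4 of opposite sign, 0 of 35 passed by limma and 1 had an unadjusted p under 0.05, and the background was 0%. The means of the 35 genes had a median of 0.24 in the turned ratio, -0.02 as deposited and 0.03 turned by the labels. The same sign on all 4 arrays was seen for 17 genes in the turned ratio (48.6%, against 48.2% of all loci). It was seen for 2 as deposited and for 2 turned by the labels (5.71% each, against 8.27% and 5.11% of all loci).

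**Figure D1:**
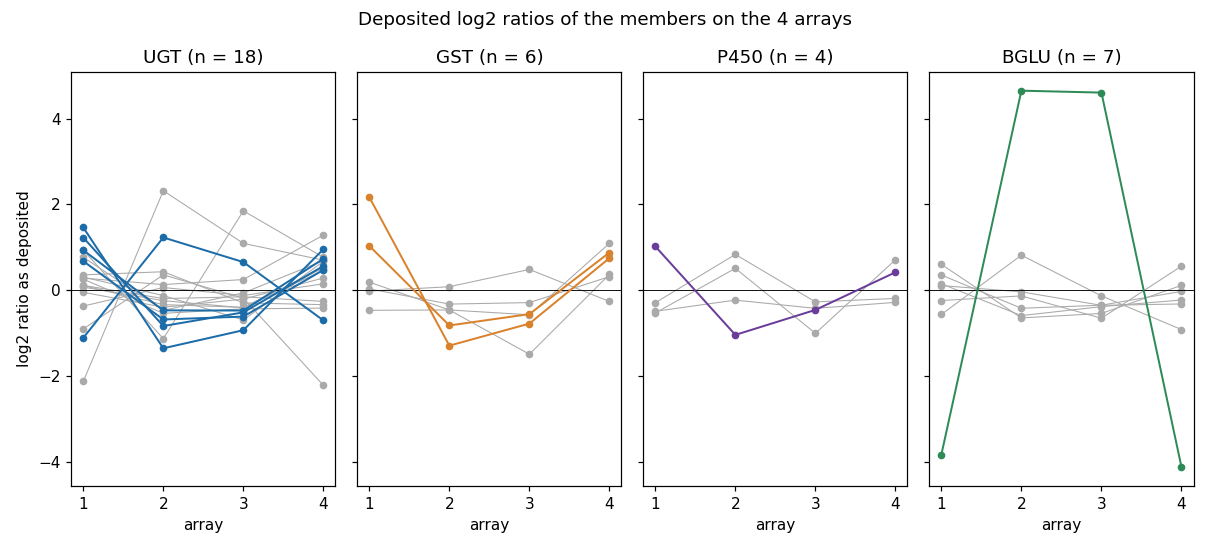
Log2 ratios as deposited (vertical axis) of the 35 genes on arrays 1 to 4 (horizontal axis), 1 panel per family and 1 line per gene, with genes past limma's test in the turned ratio in colour and the others in grey. BGLU36 lies at -3.83 and -4.11 on arrays 1 and 4 and at 4.65 and 4.60 on arrays 2 and 3, while the coloured UGT, GST and P450 genes run between -1.35 and 2.17.

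BGLU36 had by far the largest ratio of the 4 families. It is placed in the myrosinase group of family 1 glycoside hydrolases, whose active members hydrolyse glucosinolates. Whether BGLU36 makes an active enzyme was not examined. The deposited ratios of BGLU36 were -3.83, 4.65, 4.60 and -4.11 on arrays 1 to 4. All 4 turned values were -3.83 or lower, while the lowest turned value of any other member was -2.32. The turned mean was -4.30 ± 0.40 (SD, n = 4), a 19.7-fold difference likely lower in agamous (95% interval -4.77 to -3.82, limma adjusted p = 0.00101). None of these values lay at the bound of the scale, 6.64.

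The other 6 BGLU genes had turned means between -0.54 and 0.47, and none passed. BGLU25 had deposited ratios of 0.61, -0.64, -0.54 and 0.12, with a turned mean of 0.47 ± 0.24 (SD, n = 4, limma adjusted p = 0.0717). It was the only one of the 6 with 1 sign on all 4 turned values. BGLU24 had the other side of the range, with a turned mean of -0.54 ± 0.47 and 1 array of the opposite sign. BGLU33, a vacuolar enzyme that releases abscisic acid from its glucose ester, had 0.28 ± 0.41, and BGLU42, which acts on the coumarin glucoside scopolin in roots, had 0.27 ± 0.20. BGLU47, a relative of the enzymes that hydrolyse monolignol glucosides, had 0.04 ± 0.27. The 2 probes of BGLU16, the only gene of the set with more than 1 probe, had turned means of 0.24 and 0.21, and their average had 0.22 ± 0.35 (SD, n = 4). The probes thus gave the same sign and a similar size.

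Among UGT genes, UGT73C1 had the largest higher ratio. The enzyme glucosylates cytokinins. Its deposited ratios were 1.46, -1.35, -0.93 and 0.96. The turned values did not overlap 0, and the mean of 1.17 ± 0.27 (SD, n = 4) was a 2.26-fold difference, likely higher in agamous (95% interval 0.81 to 1.54, limma adjusted p = 0.0110). Quantile normalization gave 2.06 and an adjusted p of 0.0751.

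UGT74B1, which adds the glucose to the thiohydroximate in the core pathway of glucosinolate synthesis, was also likely higher. Deposited ratios were 1.23, -0.83, -0.51 and 0.57, and the turned mean was 0.78 ± 0.33 (SD, n = 4, 1.72-fold, limma adjusted p = 0.0378). Array 1 stood above the other 3. The adjusted p was 0.0585 after centring and 0.0798 to 0.151 without any 1 array, so that the call was lost in each case.

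UGT85A4 had deposited ratios of 0.94, -0.46, -0.47 and 0.74 and a turned mean of 0.65 ± 0.23 (SD, n = 4, limma adjusted p = 0.0355, 0.0609 after centring). Its call also ended without any 1 array (0.0816 to 0.117). UGT73C7, which glucosylates phenylpropanoid acids, had 0.68, -0.68, -0.61 and 0.48 and the smallest spread of the set, with a turned mean of 0.61 ± 0.10 (SD, n = 4, limma adjusted p = 0.0219). Without any 1 array its adjusted p was 0.0623 to 0.114. The differences were 1.57-fold for UGT85A4 and 1.53-fold for UGT73C7. UGT73B1, of a group that glucosylates flavonoids and other phenolics in vitro, was the UGT gene called lower. It had -1.10, 1.23, 0.66 and -0.70, and its turned mean was -0.92 ± 0.29 (SD, n = 4, 1.90-fold, limma adjusted p = 0.0219). UGT73C1 and UGT73C7, called higher, belong to the same UGT73 group. These genes were picked by their calls, so that their values lay on opposite sides of 0 is no separate result. UGT73C2 and UGT73D1 of this group had turned values of both signs.

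Apart from that of BGLU36, each of the 9 calls ended without at least 1 of the arrays. When 1 array was left out, the number of higher calls was 1, 0, 3 and 1 without arrays 1, 2, 3 and 4 in turn, and the number of lower calls was 1 each time. BGLU36 kept its call in all 13 alternatives, with adjusted p up to 0.0310, and alone among the 9 genes passed on the averages of arrays 1 with 2 and 3 with 4. UGT73B1 lost its call without any 1 of the 4 arrays, with adjusted p from 0.0551 to 0.101. UGT73C1 lost it without array 2 (adjusted p = 0.0735) and kept it without each of the others.

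**Figure D2:**
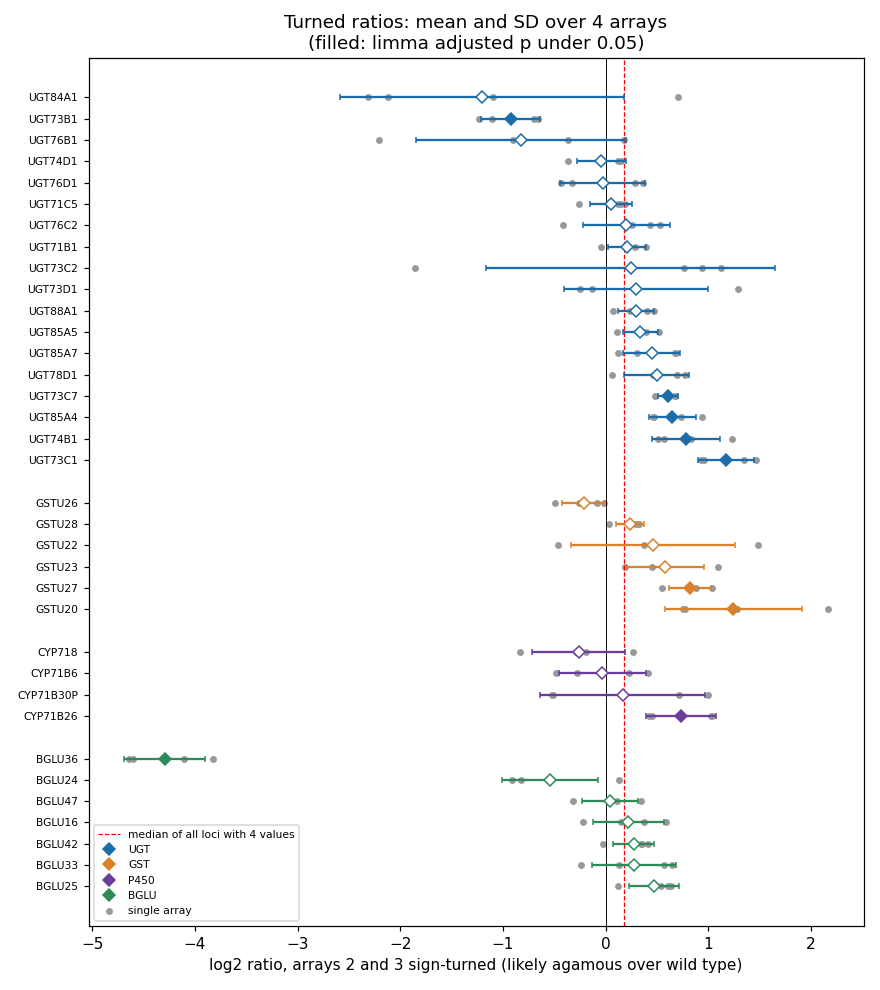
Turned log2 ratio (horizontal axis, arrays 2 and 3 sign-turned) of each of the 35 genes, with grey points for single arrays and diamonds with bars for the mean and SD over 4 arrays, filled where limma's adjusted p was under 0.05. BGLU36 stands alone at -4.30, and the other filled diamond below 0 is UGT73B1 at -0.92. The 7 filled diamonds above 0 lie between 0.61 and 1.24, and the dashed line marks the median of all loci, 0.18.

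Of the remaining 13 UGT genes, 4 had the same sign on all turned values and an unadjusted p under 0.05 without passing. UGT78D1, the flavonol rhamnosyltransferase, had 0.50 ± 0.32 (SD, n = 4, limma adjusted p = 0.0927). UGT85A7 had 0.45 ± 0.28, UGT85A5 0.34 ± 0.17 and UGT88A1 0.30 ± 0.18 (limma adjusted p from 0.0961 to 0.134). All 3 measured UGT85A genes therefore had turned means between 0.34 and 0.65, of which 1 passed, and 0 passed after centring. Over all loci the median was 0.18 (0.04 after centring), and 9.55% were called higher (3.86% after centring). With called genes included, 9 of 18 UGT genes had an unadjusted p under 0.05 by limma in the turned ratio. Among all loci 1985 of 5342 did so. The same sign on all 4 turned values was seen for 9 of 18 UGT genes and for 48.2% of all loci. Genes short of the adjusted test were thus common in the background, and the 4 named here do not add to the higher calls.

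UGT84A1 and UGT76B1 had large means that single arrays contradicted. UGT84A1, which forms glucose esters of hydroxycinnamic acids, had deposited ratios of -2.12, 2.32, 1.09 and 0.70. Its turned values were -1.09 or lower on arrays 1 to 3 and 0.70 on array 4, and the mean of -1.21 ± 1.38 (SD, n = 4) had an interval from -2.67 to 0.25. UGT76B1, which glucosylates isoleucic acid and salicylic acid, had -0.90, 0.36, -0.18 and -2.21, a turned mean of -0.82 ± 1.02 and an interval from -1.92 to 0.27. Both intervals included 0 and a 2-fold decrease. UGT73C2 had turned values of 0.94, 1.12 and 0.77 on arrays 1, 2 and 4 and -1.85 on array 3, with a mean of 0.24 ± 1.40.

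Of the other UGT genes that did not pass, UGT74D1, which conjugates auxins, had -0.04 ± 0.24, UGT71C5, which forms the glucose ester of abscisic acid, 0.05 ± 0.21, and UGT76C2, a cytokinin N-glucosyltransferase, 0.20 ± 0.42 (SD, n = 4 each). Their intervals ran from -0.38 to 0.30, from -0.27 to 0.36 and from -0.30 to 0.70, so that 2-fold differences lay outside all 3. UGT76D1, UGT71B1 and UGT73D1 had -0.03 ± 0.41, 0.21 ± 0.19 and 0.30 ± 0.70, and did not pass either.

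In the GST family 5 of 6 means were above 0 and 5 of 6 genes had the same sign on all turned values, against 68.6% and 48.2% of all loci. GSTU20, which takes part in glucosinolate synthesis and in jasmonate and far-red light signalling, had deposited ratios of 2.17, -1.29, -0.77 and 0.75. Array 1 was the highest, and the turned mean was 1.24 ± 0.66 (SD, n = 4, 2.37-fold, limma adjusted p = 0.0468). After centring the adjusted p was 0.0652, and leaving out any 1 array also ended the call (0.0688 to 0.170).

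GSTU27 had the more even ratios, 1.04, -0.82, -0.55 and 0.88, with a turned mean of 0.82 ± 0.20 (SD, n = 4, 1.77-fold, limma adjusted p = 0.0183, 0.0257 after centring). Leaving out array 3 kept its call, and leaving out array 1, 2 or 4 ended it (adjusted p = 0.0652, 0.101 and 0.0691). GSTU23 had 0.58 ± 0.38 (adjusted p = 0.0875), GSTU22 0.46 ± 0.80, GSTU28 0.24 ± 0.14 and GSTU26 -0.21 ± 0.21 (SD, n = 4 each), none of which passed. GSTU26 was the only member of the family below 0, and its 4 turned values were all negative.

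The P450 genes followed the turned order least. CYP71B26 had deposited ratios of 1.02, -1.03, -0.45 and 0.42, and its turned mean of 0.73 ± 0.34 (SD, n = 4, 1.66-fold, limma adjusted p = 0.0455) passed, but not after centring (adjusted p = 0.0756) or without any 1 array (0.0817 to 0.166). The turned values of the other 3 counted genes crossed 0. CYP718 had a turned mean of -0.26 ± 0.45.

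CYP71B6, which converts indole-3-acetonitrile, had deposited ratios of -0.49, -0.23, -0.42 and -0.28, which share 1 sign without any turning. Its mean as deposited was -0.35 ± 0.12 (SD, n = 4, unadjusted p = 0.0478, adjusted p = 1.0, limma), against -0.03 ± 0.42 in the turned ratio. CYP71B30P, named a pseudogene in the reference table, had -0.53, 0.51, -0.999 and 0.71, which is the order of the labels. Turned by the labels it averaged -0.69 ± 0.23 (SD, n = 4, unadjusted p = 0.0101, adjusted p = 1.0, limma), against 0.17 ± 0.80 in the turned ratio. Neither mean passed over all features. CYP71B29 had no value on array 2 and was not counted, and its other 3 deposited ratios were -0.68, -0.77 and -1.48.

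The 4 values of a gene can be divided exactly among 4 orders of the arrays, namely arrays 1 and 4 against 2 and 3 (the turned order), all arrays alike (as deposited), arrays 1 and 3 against 2 and 4 (the labels) and arrays 1 and 2 against 3 and 4. The turned order held the largest share of the summed squares for 22 of 35 genes (62.9%), as deposited for 6, the labels for 5 and the remaining order for 2. Over all loci the turned order led for 63.0%. The 35 genes as a whole thus stood near the other loci in this respect. By family it led for 12 of 18 UGT, 5 of 6 GST, 4 of 7 BGLU and 1 of 4 P450 genes, and the median share of the turned order was 69.6% for UGT, 77.9% for GST, 63.9% for BGLU and 18.1% for P450 genes, against 57.7% for all loci. The turned order held 99.4% of the squares of BGLU36 and 98.2% of those of UGT73C7, whereas the order of the labels held 92.5% for CYP71B30P, the deposited order 91.9% for CYP71B6 and the remaining order 97.9% for UGT76D1.

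**Figure D3:**
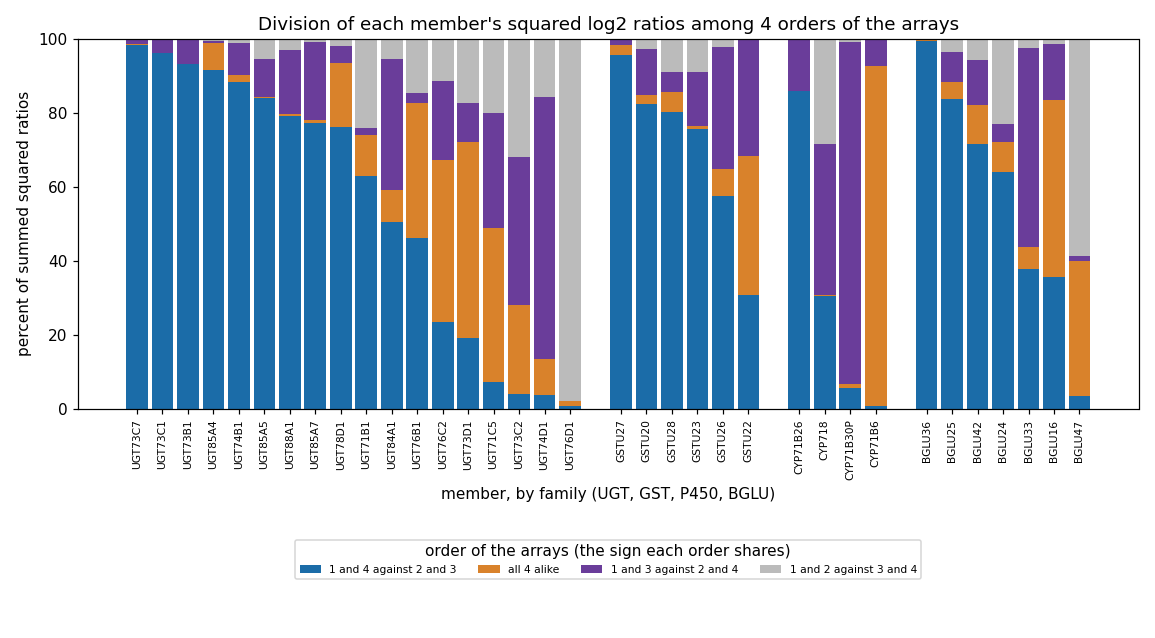
Division of the summed squared log2 ratios of each gene (vertical axis, percent) among 4 orders of the arrays, 1 stacked bar per gene, by family. Blue, the turned order, fills most of the bar for the called genes and least for CYP71B6, UGT76D1, BGLU47 and UGT74D1.

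Compared as families, the medians of the turned means were 0.27 for UGT, 0.52 for GST, 0.07 for P450 and 0.22 for BGLU genes, beside 0.18 for all 5342 loci. After centring they were 0.13, 0.38, -0.07 and 0.09, beside 0.04. The family medians on arrays 1 to 4 were 0.27, 0.28, 0.25 and 0.50 for UGT genes, and 0.11, 0.46, 0.56 and 0.56 for GST genes. The GST median was below the UGT median on array 1 and above it on arrays 2, 3 and 4. Differences between families were not tested, since members are not replicates of a condition. P450 medians were -0.39, -0.14, 0.44 and 0.12, and BGLU medians 0.11, 0.13, 0.35 and -0.22, so that both changed sign between arrays.

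**Figure D4:**
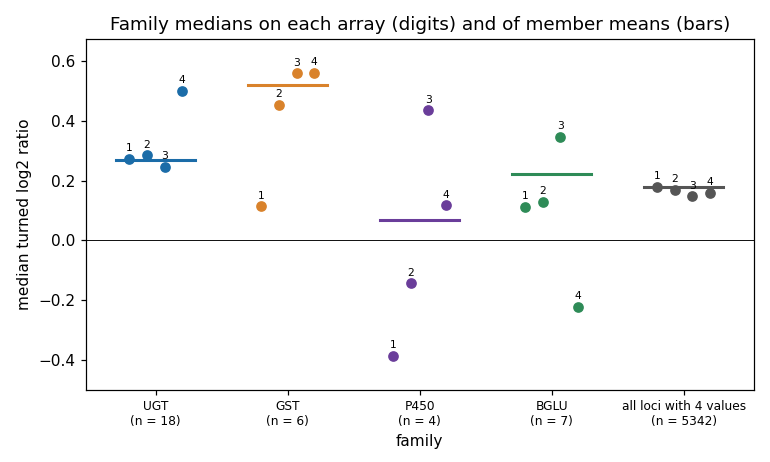
Median turned log2 ratio (vertical axis) of each family and of all loci, with points numbered by array and bars for the median of the members' means. The P450 points run between -0.39 and 0.44, while those of all loci lie between 0.15 and 0.18.

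Several members lie next to each other in the genome. On chromosome 1, GSTU22 and GSTU23 are adjacent, GSTU20 is separated from GSTU22 by GSTU21 alone, and 4 genes lie between GSTU23 and UGT85A4. UGT85A5 and UGT85A7 on chromosome 1 have only UGT85A2 between them, UGT73C1 and UGT73C2 on chromosome 2 are adjacent, and so are UGT73C7 and UGT73D1 on chromosome 3. All 10 genes of these 4 runs had a turned mean above 0, before and after centring. Before centring 4 were called higher, of which only UGT73C1 and UGT73C7 kept the call after it. Of the other 25 counted members 15 had a mean above 0 (13 after centring), 3 were called higher (GSTU27 alone after centring) and 2 lower. Over all loci 9.55% were called higher and 7.96% lower (3.86% and 8.69% after centring), and 68.6% were above 0 (54.4% after centring). Tandem copies are alike in sequence, but UGT85A4 is of another family than the GST genes of its run. The rule that joined members with at most 4 genes between them into a run was chosen after the values were seen. For both reasons these 10 genes are no independent points.

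Relatives with other symbols were not counted. UF3GT, also named UGT79B1, an anthocyanin glycosyltransferase, had a turned mean of -3.00 ± 0.75 (SD, n = 4, limma adjusted p = 0.00735), lower than that of any of the 18 UGT genes. ATA27, also named BGLU20 and an anther gene, had deposited ratios of -1.70, 3.84, 2.88 and -3.18 and a turned mean of -2.90 ± 0.90 (SD, n = 4, limma adjusted p = 0.0130). Of the beta-glucosidase genes measured singly, ATA27 and BGLU36 were the ones that passed, both with negative turned means. The overall sign was read from anther genes, of which ATA27 is one, so that its direction is no separate result. Without array 2 UF3GT lost its call (adjusted p = 0.0597), and ATA27 lost it without array 2, 3 or 4 (0.0602, 0.0592 and 0.0545). GT72B1, also named UGT72B1, which conjugates chlorinated phenols, had 0.44 ± 0.27 (adjusted p = 0.0958).

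Genes that supply or follow these enzymes were rarely measured singly. No locus was found for the lists of glutathione supply, export, P450 partners, other glycoside hydrolases and terpene synthases by symbol. USP, the UDP-sugar pyrophosphorylase, was the only gene of UDP-sugar supply, with deposited ratios of -0.54, 0.37, 0.18 and -0.52 and a turned mean of -0.40 ± 0.17 (SD, n = 4, limma adjusted p = 0.0705). The list of other conjugating enzymes was drawn by symbol, and whether its SCPL genes conjugate small molecules was not examined. In this list 3 of 5 loci were lower and 0 higher, where 7.96% of all loci were lower and 9.55% higher. The 3 were UF3GT and the serine carboxypeptidase-like genes SCPL43 and SCPL49, with turned means of -3.35 ± 0.46 and -1.39 ± 0.27 (SD, n = 4, limma adjusted p = 0.00194 and 0.00670). Without array 2 the adjusted p of SCPL49 was 0.0534. SCPL32 had -0.15 and SAT32, a salt tolerance gene that only matched the letters of the list, -0.21.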

How the data were processed

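Both RNAs, from agamous and wild-type inflorescences, were hybridised to each of 4 two-colour oligonucleotide arrays. The authors deposited 1 log2 ratio per feature and array, normalized by a published method that the labels cite and whose steps are not given in the sources used here. That the unit is log2 follows from signed values ending at plus and minus 6.64, and numerator and centring stay unknown (array medians 0.16, -0.14, -0.11 and 0.13). Scanner signals were not used here, and the number of arrays limits the precision.

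Probes were named by the platform annotation where it lists 1 gene (5756 probes matched the RefSeq table of TAIR10.1), and averaged per gene, giving 26133 features, of which 5415 were loci. Features with at least 3 values were tested against 0, two-sided, with limma 3.58.1 in R 4.3.3 (lmFit, eBayes), adjusted by Benjamini-Hochberg over all 26100 features, as deposited, turned by the labels, and with arrays 2 and 3 turned. The fit was also run on simulated independent ratios of known sign, which cannot test the choice of signs or effects shared between arrays. Members, lists and readings were chosen with earlier results of these data known. Named genes are those past the test in the third reading, up to 6 per direction and family, and others by count, range or value. Alternatives were centring, quantile normalization, bounds as missing, 4 values required, robust spread, paired arrays (1 with 2, 3 with 4) as block or averaged, dye terms, single probes, members by reference name, and each array left out. The dye term in turned order and the opposite overall sign were added after the data were seen.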

Additional observations from a re-analysis of the deposited data

Results flagged for a closer look

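Of the 35 genes 4 (11.4%) had 1 turned value far from the other 3, with a gap above Dixon's 95% critical value for 4 values, which chance exceeds in about 5% of groups. UGT73C2 had -1.85 on array 3 against 0.77 to 1.12 elsewhere (gap 0.881 of the range). GSTU28 had 0.04 on array 1 against 0.28 to 0.32 (0.870). For BGLU42, array 4 gave -0.02 against 0.34 to 0.42 (0.837), and for UGT71C5 it gave -0.26 against 0.12 to 0.19 (0.836).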

How the results depend on the processing

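The higher calls depended on the processing and the lower call of BGLU36 did not. Against 7 higher calls, there were 0 by limma with arrays 1 and 2 and arrays 3 and 4 averaged (11 members at an unadjusted p under 0.05), 1 with a dye term by the labels, 4 with a dye term in the turned order, 3 after centring and 0 to 3 with 1 array left out. Against 2 lower calls, there was 1 with averaged pairs, with a dye term by the labels and with any 1 array left out. The opposite overall sign gives 7 lower and 2 higher. Over the 9 called genes and 13 alternatives each, 65 of 117 results kept direction and call, 52 kept direction without the call, and 0 reversed. The block, averaged-pair, dye-term, robust-spread, bound and 4-value settings left the means of these genes unchanged, so they could not reverse a direction. As deposited and turned by the labels the count stayed at 0 in every alternative run. The UGT median fell to 0.13 after centring, against 0.27 before. The P450 median of 0.07 was -0.07 after centring and 0.37 after quantile normalization. With 1 array left out the medians ran between -0.14 and 0.26 for P450, 0.10 and 0.25 for BGLU, 0.40 and 0.73 for GST and 0.21 and 0.30 for UGT genes. The BGLU median of 0.22 was 0.13 with members taken by reference name. Fits with fewer arrays hold less information, and the cause of the other changes was not tested. No fit with the replicate number as a block could be made, because there is 1 group of arrays and each array gives 1 ratio, but arrays 1 with 2 and 3 with 4 as a random block gave 2 lower and 8 higher calls.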
